A study of Mus musculus with 6 samples.

Results

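Of the 182166 consensus peaks of open chromatin in mouse granulocyte-monocyte progenitors, 29032 were gene-end peaks, meaning that they lay no more than 1 kb from the start or the finish of a protein-coding gene, and 814 of these were more accessible in cells with little GFI1. Raised peaks were chosen by their normalized reads in all 6 libraries. A peak was taken as raised when its mean over the GFI1-KD libraries was at least 20 normalized reads and at least 1.3 times the GFI1-KI mean, and when every GFI1-KD library lay above every GFI1-KI library. The 814 raised peaks lay at 760 genes and made up 3.47% of the 23468 gene-end peaks with a GFI1-KD mean of at least 20. Because these values chose the peaks, their difference between the genotypes is given as a description, with no test.

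Chromatin was probed by ATAC-seq, which reads out where the transposase Tn5 can reach and tag DNA. The progenitors were sorted from marrow of C57BL/6 mice that had received no treatment. Cells homozygous for GFI1-KI carried human GFI1 in place of mouse Gfi1, and cells homozygous for GFI1-KD expressed human GFI1 at 10-20% in place of the mouse gene. So both genotypes express the human protein and differ in its amount. Each genotype had 3 libraries, called KI1 to KI3 and KD1 to KD3 here. Whether each library stands for its own animal is not stated in the labels. The spread between libraries, against which any test here sets the difference between genotypes, may therefore be technical.

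GFI1 is a zinc-finger repressor that recruits histone deacetylases and the demethylase LSD1 to its target genes. In granulocyte-monocyte progenitors, which give rise to neutrophils and monocytes, it favours the neutrophil fate and restrains genes of the monocyte line. Accessible chromatin near a gene start often marks a promoter, and that near a gene's far end can hold an enhancer or another gene's promoter.

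Promoter sequences are shown first for raised peaks that cover a start site, because AP-1 was the motif with the largest excess in their windows over those of gene-end peaks in general. AP-1 is the family of Fos, Jun and Batf dimers, and the letters searched were TGANTCA, which read the same on both strands. Since N takes any base, TGAATCA and TGATTCA were counted together with TGACTCA and TGAGTCA. A match to these letters need not be an AP-1 site, and the forms were not counted apart. In RefSeq promoter windows of GRCm38.p6, running from 250 bases before to 50 after a start site, 101 windows at 95 genes had their start site in a raised peak, and 20 of them (19.8%) held the motif. It was found in 4.41% of the 10414 windows whose start site lay in any gene-end peak with a GFI1-KD mean of at least 20, in 1.95% of the 307 windows in lowered peaks, and in 6.99% of all 21262 protein-coding windows. The 6 stretches below run from 250 bases before the start up to it, 5′ to 3′ on the gene's strand, with TGANTCA matches in capitals. They were chosen after their values were seen, to show matches close to and far from the start at genes of different roles. A match is a description of the letters, not evidence that a factor was bound.
Emp1, chr6:135362681-135362930, plus strand: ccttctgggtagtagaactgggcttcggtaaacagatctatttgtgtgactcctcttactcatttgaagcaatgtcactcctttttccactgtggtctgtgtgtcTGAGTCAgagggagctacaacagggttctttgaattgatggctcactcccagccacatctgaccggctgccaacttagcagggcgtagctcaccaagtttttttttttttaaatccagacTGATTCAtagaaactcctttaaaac
Arhgef10l, chr4:140665888-140666137, minus strand: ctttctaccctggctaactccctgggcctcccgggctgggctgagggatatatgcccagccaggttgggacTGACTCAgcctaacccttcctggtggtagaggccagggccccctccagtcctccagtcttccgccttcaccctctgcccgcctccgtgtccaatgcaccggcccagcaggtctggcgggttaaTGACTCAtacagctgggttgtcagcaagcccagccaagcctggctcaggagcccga
Lipn, chr19:34067108-34067357, plus strand: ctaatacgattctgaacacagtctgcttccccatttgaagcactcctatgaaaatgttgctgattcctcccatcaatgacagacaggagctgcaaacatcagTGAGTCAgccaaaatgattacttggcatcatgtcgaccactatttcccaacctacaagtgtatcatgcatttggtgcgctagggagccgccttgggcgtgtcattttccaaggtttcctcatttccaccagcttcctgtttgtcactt
Mmp13, chr9:7272264-7272513, plus strand: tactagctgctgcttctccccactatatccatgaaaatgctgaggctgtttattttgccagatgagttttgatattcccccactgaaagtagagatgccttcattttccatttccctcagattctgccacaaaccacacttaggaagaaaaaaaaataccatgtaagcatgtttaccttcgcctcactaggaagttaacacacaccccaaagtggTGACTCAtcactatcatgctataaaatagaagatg
Tnfsf13b, chr8:10006383-10006632, plus strand: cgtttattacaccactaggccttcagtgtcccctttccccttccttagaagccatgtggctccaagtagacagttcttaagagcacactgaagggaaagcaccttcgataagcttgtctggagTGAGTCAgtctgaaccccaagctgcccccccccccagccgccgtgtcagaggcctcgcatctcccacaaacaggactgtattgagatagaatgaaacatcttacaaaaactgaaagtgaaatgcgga
Trem2, chr17:48346151-48346400, plus strand: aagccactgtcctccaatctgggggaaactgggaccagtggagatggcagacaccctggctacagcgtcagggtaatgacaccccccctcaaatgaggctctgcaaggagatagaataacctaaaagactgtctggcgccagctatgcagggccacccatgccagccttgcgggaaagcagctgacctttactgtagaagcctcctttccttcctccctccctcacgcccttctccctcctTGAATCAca

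Emp1, which encodes a small membrane protein of the PMP22 family, had 2 matches, 25 and 145 bases before its start. Its raised peak (chr6:135362618-135363063) held 72.1, 64.0 and 63.4 normalized reads in KI1 to KI3 and 121, 211 and 201 in KD1 to KD3, a ratio of means of 2.67. Arhgef10l also had 2 matches, 56 and 179 bases before the start shown, of which 1 lay inside its peak. That peak (chr4:140665872-140666050) held 15.8, 14.9 and 7.6 reads against 42.8, 24.7 and 24.4. KD1 stood above the other GFI1-KD libraries at Arhgef10l, whereas at Emp1 it was the lowest of them. At Lipn, a lipase gene with 1 match 148 bases before its start, the values were 100.2, 88.5 and 109.5 against 267, 162 and 184.

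The match at Mmp13, which encodes collagenase 3, lay 35 bases before the start, in a weak peak of 15.8, 14.0 and 12.1 reads in GFI1-KI and 25.7, 25.9 and 17.7 in GFI1-KD. Tnfsf13b encodes BAFF, the B cell survival factor that myeloid cells secrete, and its match lay 127 bases before the start. The Tnfsf13b peak (chr8:10006244-10006973) held 345, 243 and 253 reads against 488, 413 and 445, with KI1 the closest to the GFI1-KD range. At Trem2, a lipid-sensing receptor of macrophages with its match 9 bases before the start, the values were 218, 208 and 178 against 301, 221 and 268. The Trem2 genotypes were nearly touching, since KD2 exceeded KI1 by a small margin and the ratio of means was 1.31.

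The 814 raised peaks had a median ratio of GFI1-KD to GFI1-KI means of 1.48, with quartiles of 1.37 and 1.66. The ratio reached 1.5 in 368, 2 in 72 and 3 in 8 of them, up to 6.24. The median peak held 40.4 reads in GFI1-KI against 64.8 in GFI1-KD, as means over libraries, and 340 (41.8%) had a GFI1-KD mean under 50, against 25.02% of gene-end peaks with at least 20. At the other end, 82 raised peaks (10.1%) reached a GFI1-KD mean of 250, against 38.6% of those gene-end peaks, whose median ratio was 0.94. So the raised set lay toward the weak end of gene-end chromatin, as the plot of genotype means shows. Near the threshold, Dpp3 (33.8, 25.4 and 29.5 against 36.4, 34.6 and 44.4) and Rbx1 (19.1, 18.4 and 16.6 against 22.5, 24.7 and 23.3) lay just inside at a ratio of 1.301. C2cd4b (93.5, 81.5 and 81.6 against 132, 97.5 and 104) and Sema4a (113, 85.9 and 72.5 against 118, 114 and 121) lay just outside at 1.299, and 543 peaks met every criterion but the ratio.

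**Figure D1:**
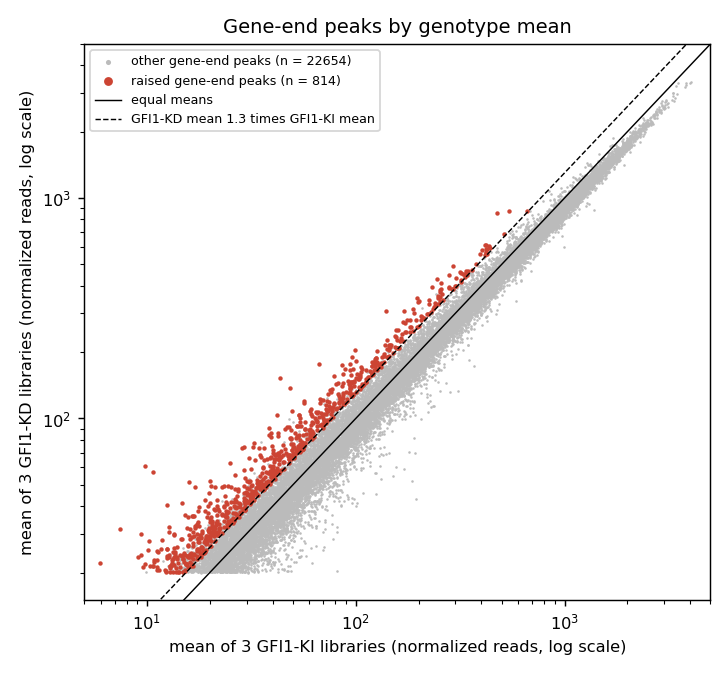
Mean normalized reads over the 3 GFI1-KD libraries (vertical, log scale) against the 3 GFI1-KI libraries (horizontal, log scale) for gene-end peaks with a GFI1-KD mean of at least 20; each point is a peak. The 814 raised peaks (red) lie above the dashed line at 1.3 times, most of them at means below 250.

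Monocyte, dendritic cell and macrophage genes held several of the raised peaks. Of 57 gene-end peaks of the monocyte and dendritic list with a GFI1-KD mean of at least 20, 5 (8.77%) were raised. Of 19 peaks of the mature macrophage list 3 (15.8%) were raised, beside 3.47% raised over all such peaks. In the monocyte and dendritic list 1 of 55 (1.82%) was lowered. In the macrophage list 2 of 18 (11.1%) were lowered, at Apoe and C1qc. Lowered peaks are counted here and below among gene-end peaks with a GFI1-KI mean of at least 20, of which 5.52% were lowered. Cx3cr1, the fractalkine receptor of monocytes, had its raised peak at the 3′ end inside the gene (chr9:120049293-120049773), with 172, 148 and 156 reads in KI1 to KI3 and 300, 233 and 224 in KD1 to KD3. The genotypes were well apart there, and the ratio of means was 1.59. Ccr2, the receptor for CCL2 by which monocytes leave the marrow, was raised over its start site, at 141, 114 and 120 reads against 168, 172 and 165. Its GFI1-KD libraries were tightly grouped at 168 ± 3.2 (SD, n = 3), against 125 ± 14.0 in GFI1-KI. The 1 lowered peak of the monocyte and dendritic list was also at Ccr2, inside the gene near its 3′ end (chr9:124108479-124108679), with 48.4, 41.2 and 45.3 reads against 34.2, 29.6 and 33.3. So Ccr2 had peaks of both directions.

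Cd14, the co-receptor for lipopolysaccharide, had a strong peak over its end (chr18:36725838-36726933) with 361, 342 and 297 reads against 509, 395 and 440. Fcer1g, the signalling chain shared by Fc receptors, was raised inside the gene near its 5′ end, at 364, 291 and 251 against 530, 411 and 367. KI1 and KD3 were almost level at Fcer1g, and so this peak was separated by little. Batf3, an AP-1 family factor needed for cross-presenting dendritic cells, had a weak raised peak just upstream of the gene with 16.9, 18.4 and 16.6 reads against 26.7, 32.1 and 31.0, a ratio of 1.73.

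Among macrophage genes, Mrc1, the mannose receptor, held 32.7, 32.4 and 27.2 reads upstream of its 5′ end in GFI1-KI and 49.2, 51.8 and 43.2 in GFI1-KD. Siglec1, the sialoadhesin of tissue macrophages, held 164, 165 and 143 against 259, 167 and 202. KD2 exceeded KI2 by only a little at Siglec1, while the Mrc1 values stood clear of each other. The scavenger receptor gene Msr1, which is in neither list, had one of the largest ratios, 4.25, on 11.3, 8.8 and 2.3 reads against 42.8, 19.7 and 32.2. Its KI3 value came from 3 sequenced reads, so that ratio is loosely fixed.

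Of the innate sensing and NF-kB list, 6 of 80 peaks (7.5%) were raised at 4 genes, Tlr7, Nlrp3, Casp4 and Cd14. The lowered peaks, 2 of 79 (2.53%), were at Nfkbie and Nfkbiz. Tlr7, the endosomal receptor for single-stranded RNA, had a peak inside the gene (chrX:167329679-167329928) with 43.9, 43.8 and 40.0 reads in GFI1-KI and 83.5, 91.3 and 83.2 in GFI1-KD, a ratio of 2.02. The libraries of each genotype lay close together there, with SDs of 2.2 and 4.6. A second Tlr7 peak over the same end held 51.8, 51.7 and 55.9 against 83.5, 60.5 and 76.5. Nlrp3, the sensor of the inflammasome, had a strong peak over its start site with 517, 465 and 284 reads against 600, 542 and 544. KI3 stood well below KI1 and KI2 at Nlrp3, and KI1 was near KD2. Casp4, the protease that senses cytosolic lipopolysaccharide, was raised over its start site at 472, 410 and 398 against 592, 555 and 609, and again downstream of it at 60.8, 55.2 and 43.8 against 81.3, 99.97 and 95.4.

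Other genes of inflammation, chosen after their values were seen, were raised over their start sites as well. Mefv, which encodes pyrin, held 178, 126 and 119 reads against 260, 193 and 231. Nlrp12, a regulatory NOD-like receptor, held 135, 108 and 125 against 198, 167 and 177. Acod1, the enzyme that makes itaconate in activated macrophages, held 50.7, 36.8 and 37.0 against 85.6, 58.0 and 53.2. At these 3 genes KI1 was the GFI1-KI library nearest the GFI1-KD values, and the ratios ran from 1.47 to 1.61. Mt2, a metallothionein, held 248, 191 and 236 against 438, 280 and 317.

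Genes of cytokine signalling held 7 raised peaks among 80 (8.75%), with 3 of 80 (3.75%) lowered, at Il2rg, Il6ra and Socs1. Socs3, the feedback inhibitor of STAT3 signalling, had one of the most accessible raised peaks, over its start site (chr11:117968853-117969709), with 551, 586 and 489 reads in GFI1-KI and 946, 790 and 883 in GFI1-KD, means of 542 ± 49.1 and 873 ± 78.5 (SD, n = 3 each). A weaker Socs3 peak just outside the gene followed it, at 45.0, 34.2 and 46.8 against 67.4, 46.9 and 64.3. Csf2rb, the shared beta chain of the receptors for GM-CSF, IL-3 and IL-5, held 84.4, 77.1 and 78.5 against 141, 137 and 153. The Csf2rb and stronger Socs3 peaks were clearly separated, whereas the weaker Socs3 peak was barely separated, KI3 and KD2 being almost level. The receptor genes Il6ra (133, 99.9 and 120 against 162, 163 and 170) and Il10ra (75.4, 71.0 and 64.2 against 96.3, 107 and 112) each had 1 raised peak, and Il17ra had 1 at each of its ends. Il6ra also had a lowered peak, near its 3′ end, with 78.8, 90.3 and 103 against 56.7, 54.3 and 64.3.

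Chemokine genes and their receptors held 6 raised peaks among 49 (12.2%). They also held lowered peaks, 5 of 47 (10.6%), at Ackr3, Ccl17, Ccr2, Cxcl12 and Cxcr2. Besides Ccr2 and Cx3cr1, the raised ones were at Ccl12, Ccl7, Cxcl1 and Cxcr1. Ccl12, a monocyte attractant, was raised over its start site, at 117, 75.4 and 83.1 reads against 142, 137 and 163. The neutrophil attractant gene Cxcl1 held 27.0, 19.3 and 22.7 against 36.4, 30.9 and 42.1, and Ccl7, Cxcl1 and Cxcr1 all had GFI1-KD means under 50. The Cxcr1 peak, at the gene for a neutrophil chemokine receptor, was separated by little, with 14.6, 15.8 and 12.8 against 16.0, 29.6 and 17.7.

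Neutrophil granule and receptor genes were among those raised too, with 5 of 36 peaks (13.9%) raised. A further 3 of 36 (8.33%) were lowered, at Ceacam1, Cxcr2 and Mcpt8. Mcpt8 is also in the eosinophil, basophil and mast cell list, so its lowered peak is counted in both and is not particular to neutrophils. Camp, which encodes the cathelicidin of secondary granules, was raised over its start site, with 319, 234 and 228 reads in GFI1-KI and 422, 352 and 332 in GFI1-KD. Mpo, the myeloperoxidase of primary granules, was raised beyond its 3′ end (chr11:87804698-87805351), at 251, 330 and 324 against 357, 452 and 390. S100a9, a subunit of calprotectin, held 114, 124 and 123 against 139, 168 and 169. At Mpo and S100a9, KI1 was the lowest GFI1-KI library, the reverse of most raised peaks. Cd177 and Fpr1, a neutrophil surface antigen and a formyl peptide receptor, had GFI1-KD means of 21.4 and 31.8. So raised peaks were at genes of both lines that these progenitors form, and no comparison between the lists was tested.

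**Figure D2:**
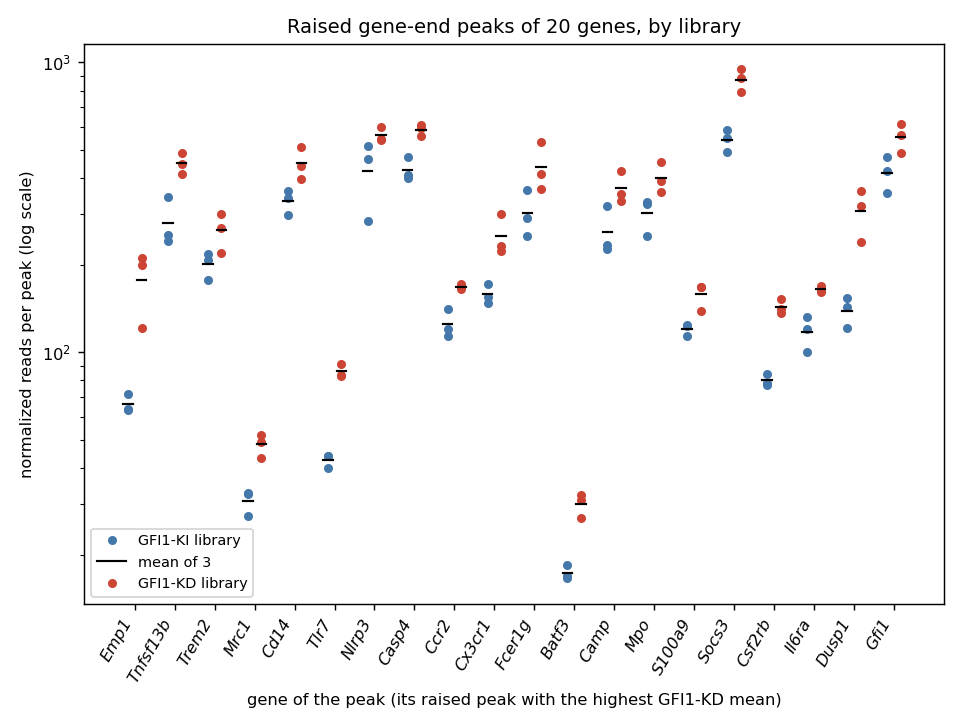
Normalized reads per library (vertical, log scale) at the raised peak with the highest GFI1-KD mean for each of 20 genes, with GFI1-KI libraries in blue, GFI1-KD libraries in red and bars at the mean of 3. The genotypes are far apart at Emp1, Tlr7, Dusp1 and Csf2rb and nearly touch at Trem2, Fcer1g and Gfi1.

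Among genes of the GFI1 target list, 5 of 67 peaks (7.46%) were raised, at Batf3, Gfi1, Id3 and, with 2 peaks, Socs3. In the same list 3 of 67 (4.48%) were lowered, at Csf1, Gfi1 and Hlf. Gfi1 itself had peaks of both directions, of which the raised one lay inside the gene, 703 bp from its 3′ end (chr5:107717358-107718431 within the gene at chr5:107716655-107725805). It held 471, 355 and 424 reads in KI1 to KI3 and 612, 486 and 561 in KD1 to KD3, means of 416 ± 58.2 and 553 ± 63.3 (SD, n = 3 each). KI1 and KD2 were almost level at this peak. The lowered Gfi1 peak lay 884 bp upstream of the 5′ end (chr5:107726689-107727045) and held 216, 151 and 151 reads against 122, 90.1 and 87.6, with no overlap. Both genotypes have human GFI1 in place of the mouse gene. How reads of the human sequence were treated on the mouse build is not given in the sources used here. Id3, an inhibitor of basic helix-loop-helix factors, held 110, 116 and 117 against 178, 142 and 142 at its 3′ end. It was the 1 raised peak among 123 of the myeloid transcription factor list (0.813%), in which 7 of 123 (5.69%) were lowered.

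Raised peaks were no denser around Gfi1 than on the rest of chromosome 5. Within 15 Mb of Gfi1, 7 of 377 gene-end peaks (1.86%) were raised, against 39 of 1103 (3.54%) farther away on that chromosome. The 7 included Gfi1 and the largest ratio of all, at Naa11, a gene for an N-terminal acetyltransferase 10.3 Mb away. The Naa11 peak (chr5:97382983-97383256) held 7.9, 13.1 and 8.3 reads in GFI1-KI and 48.1, 71.6 and 63.2 in GFI1-KD. All 3 GFI1-KD libraries were far above GFI1-KI, at a ratio of 6.24.

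Other large ratios fell at genes of mixed roles, mostly on weak peaks. Nmrk1, a nicotinamide riboside kinase, followed Naa11 at 5.34, but its GFI1-KD libraries were spread widely, at 55.6, 97.5 and 18.8 reads against 10.1, 12.3 and 9.8. Tnfsf9, which encodes the co-stimulatory 4-1BB ligand, was raised evenly beyond its gene end (chr17:57108722-57109108), with 50.7, 44.7 and 35.5 reads against 165, 138 and 154, a ratio of 3.49. Vim, which encodes the intermediate filament protein vimentin, was raised beyond its 3′ end (chr2:13583486-13584199) with 63.1, 34.2 and 48.3 against 85.6, 156 and 172. KD1 was the lowest GFI1-KD library at Vim, as it was at Emp1. Dusp1, an immediate early phosphatase that switches off MAP kinases, held 154, 143 and 121 upstream of its 5′ end against 241, 320 and 359, a ratio of 2.20. Apart from Dusp1 and Batf3, none of the 74 gene-end peaks of the AP-1 and immediate early list was raised, and 1 was lowered. Saa3, an acute phase serum amyloid gene, Ceacam10, Olfr593, Lrif1, Mcts2, Elmod1 and Aknad1 made up the rest of the 12 largest ratios, on GFI1-KD means between 22.0 and 51.3 reads.

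The most accessible raised peaks were at Slc13a3, a dicarboxylate carrier (760, 588 and 643 against 988, 779 and 856), at the stronger Socs3 peak and at Arhgap12. The Arhgap12 peak held 540.5, 474 and 411 against 916, 819 and 843 and so was clearly separated, whereas KD2 was close to KI1 at Slc13a3. Gimap6, Sirpa, Xdh, Mcub and Fbxl2 completed the 8 highest, with GFI1-KD means from 592 to 687. Sirpa, the myeloid receptor for CD47, held 449, 414 and 393 against 638, 566 and 630. Arhgap12, Abca8b, Ifi207 and Prss30 were the 4 genes with 3 or more raised peaks, and 46 genes had 2. The Ifi207 peaks, at an interferon-inducible gene, lay around its 5′ end, and the one over the start site held 78.8, 73.6 and 79.3 against 108, 165 and 134. At Abca8b, a lipid transporter gene, the 3 peaks had GFI1-KD means of 90.1, 108 and 90.5.

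Lists of other lineages are short, and their raised counts are read only beside the 3.47% of all gene-end peaks. Erythroid, B cell, T and NK cell, and interferon response genes had none raised among 18, 18, 28 and 27 peaks, numbers too small to set them apart from that share. Lowered in these lists were 6 of 23, 1 of 18, 1 of 30 and 3 of 29, beside 5.52% of all. Of 24 megakaryocyte peaks 1 (4.17%) was raised, upstream of Pf4, the platelet chemokine (118, 89.4 and 83.8 against 119, 131 and 139), and 9 of 28 were lowered. Stem cell and leukaemia genes had 2 raised of 66 (3.03%) and 12 lowered of 73. The 2 were Nkx2-3, a homeobox factor (29.3, 78.9 and 61.2 against 153, 92.6 and 113), and the 3′ end of Cd34, a progenitor surface antigen (5.6, 19.3 and 15.1 against 21.4, 27.2 and 25.5). KI1 was the lowest library at both. Among eosinophil, basophil and mast cell genes, 1 of 21 (4.76%) was raised, at Ear2, and 5 of 21 were lowered. Lists of general cell functions and of gene families were mixed. Of oxidative phosphorylation peaks 5 of 138 were raised and 6 of 140 lowered, and at solute carriers 15 of 487 and 31 of 496. Zfp zinc-finger genes had 10 of 478 raised and 28 of 477 lowered, and ribosomal protein genes 1 and 2 of 145. None of 49 histone gene peaks and 1 of 92 chromatin regulator peaks was raised, with 7 of 49 and 7 of 94 lowered.

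The summed level of each list was set beside that of all gene-end peaks, whose sum over libraries had a ratio of GFI1-KD to GFI1-KI of 0.921. Over all gene-end peaks GFI1-KI libraries summed to 8.32e+06 to 8.45e+06 normalized reads and GFI1-KD libraries to 7.31e+06 to 7.95e+06, without overlap. Likewise, for 22 of the 29 lists every GFI1-KD sum lay below every GFI1-KI sum, and for the other 7 the genotypes overlapped. So a lower sum was the usual case and not particular to a list. All sums use the deposited scaling. With equal totals the median ratio of gene-end peaks was 0.966 in place of 0.938. Summed over its gene-end peaks, the erythroid list came to 6884 to 7417 normalized reads in the GFI1-KI libraries, while GFI1-KD libraries had 5745 to 6322, a ratio of 0.846, and the megakaryocyte list 3619 to 4304 and 2888 to 3291, a ratio of 0.792. The B cell list and the T and NK cell list had ratios of 0.938 and 0.927, and the ribosomal protein list 0.935. The macrophage sums overlapped, at 3986 to 4382 and 3954 to 4444, as did those of the neutrophil list at 8591 to 9485 and 9192 to 9978 and of the monocyte and dendritic list at 12697 to 13954 and 13166 to 13943. A gene-end peak was present for 13 of 23 erythroid, 17 of 20 megakaryocyte and 16 of 20 macrophage genes. In bulk libraries, more cells of a type and more open chromatin per cell cannot be told apart, and the part of cell mixture in the raised peaks was not tested. Of 12 progenitor markers, 11 had a gene-end peak and 7 had their strongest one above the median of all genes with such a peak, 349 reads. Mpo, Cebpa, Kit and Spi1, core genes of these progenitors, were among the accessible ones, with GFI1-KI means of 1370, 1755, 1409 and 824 and GFI1-KD means of 1265, 1614, 1110.1 and 827. Kit held 1400, 1388 and 1439 reads against 1182, 1039 and 1109, and Cebpa 1743, 1785 and 1738 against 1633, 1564 and 1644. At Kit, Cebpa and Mpo every GFI1-KD library was below every GFI1-KI library, and at Spi1 they overlapped. The gap was small at Mpo, with KD1 at 1323 and KI1 at 1332. Other markers had higher GFI1-KD means, with overlapping libraries. These were Ctsg (1096 in GFI1-KI against 1252 in GFI1-KD), Elane (418 against 441), Prtn3 (244 against 263) and Csf1r (220 against 269). Csf3r (264 against 265) and Fcgr2b (189 against 191) were about level, and Cd34 (366 against 333) was lower with overlap. Start-site peaks with means of 250 or more had a median ratio of 0.912, so lower GFI1-KD values were usual among them. The share of such peaks separated in this way was not counted. Fcgr3 had no gene-end peak.

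Raised peaks lay off the gene ends more than gene-end peaks in general. The gene end itself was inside 16.8% of raised peaks, against 45.8% of gene-end peaks with a GFI1-KD mean of at least 20, and their median distance to it was 440 bp against 92 bp. They were also shorter, with a median length of 268 bp against 424 bp, and 55.7% against 63.3% lay inside the gene body. For 643 raised peaks the promoter table gave the gene's strand, and 416 (64.7%) of them were at the 5′ end and 227 (35.3%) at the 3′ end, against 83.3% and 16.7% of gene-end peaks. Lowered peaks had much the same division, 66.9% and 33.1%. They were short as well, with a median length of 289 bp, and 56.3% lay inside the gene body. The gene end was inside 29.5% of lowered peaks, and their median distance to it was 299 bp. So these traits were not particular to raised peaks.

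The share of peaks raised varied with both place and level. Of peaks that covered a listed start site, 96 of 8919 (1.08%) were raised, compared with 321 of 6648 (4.83%) at 5′ ends with the start site outside and 226 of 3050 (7.41%) at 3′ ends. Start-site peaks are mostly strong, so the shares were also taken by the mean of all 6 libraries. At means of 250 or more the shares were 0.302%, 1.95% and 3.38% in that order, and at means of 20 to 50 they were 5.11%, 4.61% and 8.36%. So the start-site share was close to the other 5′ share at low levels and was the smallest of the 3 at high levels. Lowered peaks, among those with a GFI1-KI mean of at least 20, had shares of 3.19%, 5.65% and 10.6% over the same places. By level their order differed, since at means of 50 to 100 the lowered shares were 10.9%, 5.16% and 11.4%, whereas the raised ones were 2.95%, 5.28% and 5.88%, and at 100 to 250 the lowered start-site share, 5.93%, was the highest of the 3. No test was made, because peaks of the same libraries are not replicates.

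**Figure D3:**
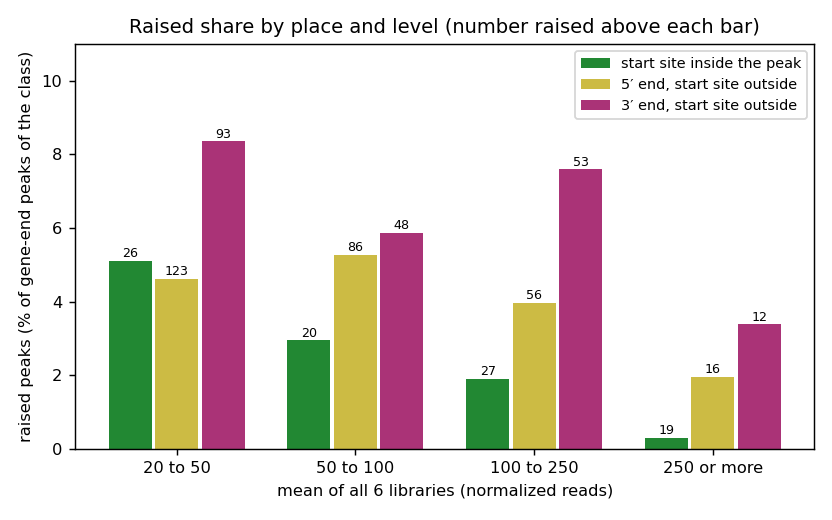
Percentage of gene-end peaks that were raised (vertical) in 4 classes of mean level over all 6 libraries (horizontal), with the number of raised peaks above each bar; colours give the place of the peak. The start-site share falls from 5.11% at means of 20 to 50 to 0.302% at 250 or more, and the 3′ share is the highest in every class.

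Where a raised peak was not over the start site, the start-site peak of the same gene mostly did not follow it. Another peak covered the gene's start site for 444 raised peaks, 84 were themselves that peak, 115 had genes with no peak there, and 171 had genes not in the promoter table. For raised peaks at 5′ ends, 262 such start-site peaks had a median ratio of GFI1-KD to GFI1-KI means of 0.97 (0.603 to 2.40), and 11 were raised and 3 lowered by the rule. For raised peaks at 3′ ends, 161 start-site peaks had a median ratio of 0.93 (0.543 to 1.51), and 1 was raised and 2 lowered. All 8919 peaks over a listed start site with a GFI1-KD mean of at least 20 had a median ratio of 0.917. The 5′ median was above that and the 3′ median was near it. Of these peaks 1.08% were raised, a smaller share than 11 of 262 and a larger one than 1 of 161.

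At Dusp1 the start-site peak held 1689, 1635 and 1740 reads in GFI1-KI and 1686, 1467 and 1628 in GFI1-KD, overlapping between genotypes, beside the raised upstream peak of 307 ± 60.3 (SD, n = 3) in GFI1-KD. The Mpo start-site peak was at 1332, 1398 and 1380 against 1323, 1168 and 1306, all GFI1-KD libraries below GFI1-KI, while the peak beyond its 3′ end was raised. Cx3cr1 was alike, with 465, 416 and 388 at its start site against 408, 373 and 376, which overlapped. Gfi1 had 703, 620 and 683 against 623, 581 and 605 over its start site, where KD1 was just above KI2. Vim differed from these, since its start-site peak of 1724, 1681 and 1697 in GFI1-KI was at 1709, 1918 and 2000 in GFI1-KD. Still, KD1 lay below KI1 at Vim, so the genotypes overlapped.

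**Figure D4:**
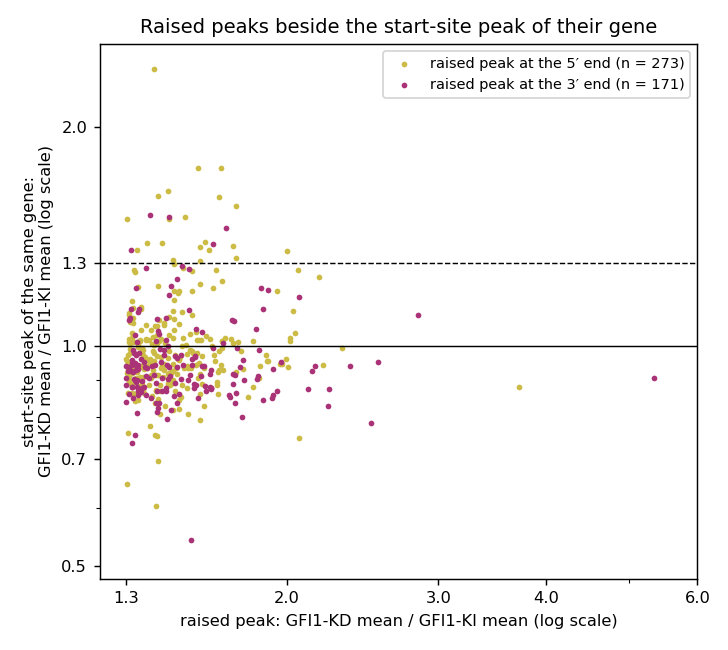
Ratio of GFI1-KD to GFI1-KI means at the start-site peak of a gene (vertical, log scale) against the ratio at a raised peak of that gene (horizontal, log scale); each point is a raised peak, coloured by the end of the gene it lies at. Most start-site peaks lie around the solid line at 1 and few reach the dashed line at 1.3.

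The promoter windows in raised peaks were poor in CpG. Their median ratio of observed to expected CpG was 0.378, against 0.787 for windows in gene-end peaks, 0.550 in lowered peaks and 0.567 over all windows, and their median GC content was 54.7% against 62.3% in gene-end peaks. A CpG ratio of at least 0.6 was reached by 30.7% of them and by 77.1% of those in gene-end peaks. The GC-rich SP/KLF motif, GGGCGG, was in 38.6% against 68.8%. Windows with few CpG were then compared among themselves. Below a CpG ratio of 0.6, AP-1 matches were in 19 of 70 windows in raised peaks (27.1%), in 197 of 2387 windows in gene-end peaks (8.25%) and in 2.91% of those in lowered peaks. Split by level in place of CpG, the AP-1 shares were 20.8% against 7.26% at GFI1-KD means under 100, and 18.9% against 4.02% at 100 or more.

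Of the 16 motifs searched, on both strands, others stood closer. The GFI1 core letters AATCA were in 40.6% of windows in raised peaks, 27.0% in gene-end peaks, 25.1% in lowered peaks and 34.6% of all windows, and below a CpG ratio of 0.6 in 47.1% against 33.6%. An AP-1 match of the form TGAATCA, or TGATTCA when read on the other strand, contains AATCA. So these counts overlap, as at the Trem2 match and the nearer Emp1 match shown above. The AP-1 shares without TGAATCA and TGATTCA were not taken. C/EBP letters (TTGCNNAA) were in 15.8% against 7.68%, and below a CpG ratio of 0.6 in 20% against 12.4%. The CCAAT box was level, in 37.6% against 38.1%, and TATAAA was in 13.9% against 6.24%. The NF-kB motif was level as well, in 7.92% of windows in raised peaks and 7.88% in gene-end peaks. The shares have no test, since the motif is counted in chosen peaks and windows of nearby starts share sequence.

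**Figure D5:**
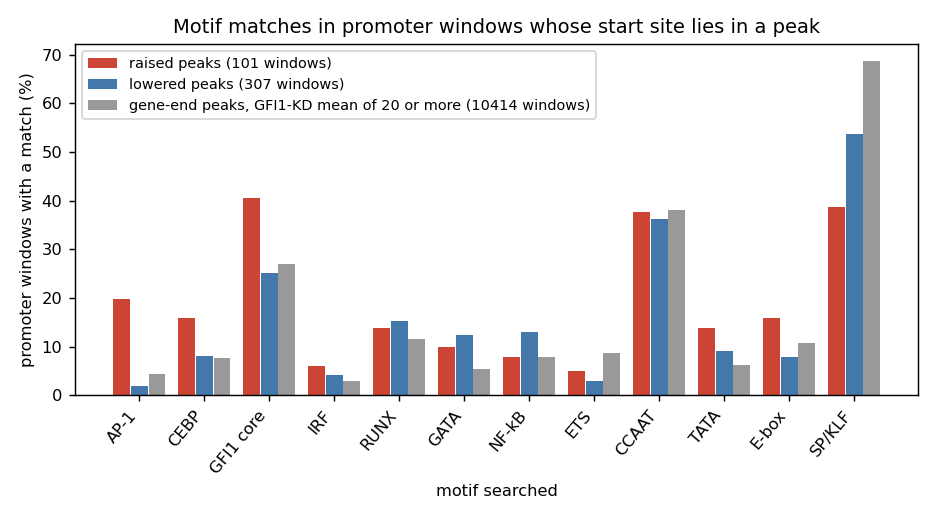
Percentage of promoter windows with at least 1 match (vertical) for 12 motifs (horizontal), for windows whose start site lies in raised peaks (red, 101 windows), lowered peaks (blue, 307) or any gene-end peak with a GFI1-KD mean of at least 20 (grey, 10414). Matches to the AP-1 letters TGANTCA, with any base at N, are in 19.8% of the windows in raised peaks and in 4.41% of those in gene-end peaks.

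Raised peaks were a smaller fraction of gene-end chromatin than of chromatin elsewhere. By the same values, 11.2% of peaks more than 1 kb from a gene end were raised, and 9.8% of all peaks. With the genotypes exchanged, 1307 gene-end peaks at 1224 genes were lowered (5.52%), against 11.8% of peaks farther away, and 40 genes had both a raised and a lowered peak. Which direction had more gene-end peaks depended on scaling: with libraries scaled to equal totals 1082 were raised and 985 lowered, and with median-of-ratios size factors 1081 and 976. Under either, 808 of the 814 raised peaks were raised again. In limma's test over all peaks, used here only to describe, 388 of the 814 were called higher at an adjusted p under 0.05 (47.7%), beside 4.99% of all tested peaks called higher and 10.5% called in either direction. Nothing is read from that count, because the rule used the same contrast.

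The libraries differed in depth, with 19408373, 24365743 and 27741446 reads in peaks in KI1 to KI3 and 19857646, 16022763 and 19151059 in KD1 to KD3. Raised peaks took 0.301%, 0.268% and 0.263% of these reads in GFI1-KI and 0.434%, 0.426% and 0.417% in GFI1-KD, whereas all gene-end peaks took 38.7%, 38.9% and 39.7% against 37.4%, 37.0% and 37.0%. KI1, the shallowest GFI1-KI library, was the highest of its genotype in 490 of the 814 raised peaks, KI2 in 184 and KI3 in 140. The GFI1-KD libraries were more even, with KD1 highest in 342, KD3 in 279 and KD2 in 193. The lowest GFI1-KD value was a median of 1.14 times the highest GFI1-KI value, at least 1.3 times in 149 raised peaks and under 1.1 times in 293. With reads thinned to equal depth, an alternative chosen after seeing the data, 655 of the 814 met the rule again, among 1025 raised and 973 lowered. Without KI1 the rule gave 1528 raised peaks, and without KD2 1291.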

How the data were processed

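The authors deposited normalized ATAC-seq coverage per consensus peak, a signal. Dividing each library by its smallest step returned whole reads for 100% of values (tolerance 0.01 reads), and 3 reads, taken as the floor, came to 2.27 to 3.70 normalized reads. The build was mm10, and the submitters' processing notes list HOMER, ChIPseeker, DiffBind, MACS2, Picard, SAMtools, BWA and Trim Galore without versions. The way peaks were merged and scaled, and any shift of reads for the Tn5 offset, were not given in the sources used here. Per the file headers 1 genotype is called WT. It was taken as GFI1-KI, since the series title calls that genotype wild type and the numbers match.

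Chromosome codes were read in alphabetical order of chromosome name. Distances ran from the nearest edge of a peak to either end of 21883 RefSeq protein-coding genes, and a peak was assigned to the gene with the nearest end, although 71 raised peaks had another gene end within 1 kb. Strands, start sites and sequences came from the RefSeq promoter table of GRCm38.p6. Lowered peaks met the same rule with the genotypes exchanged. All peaks with a mean of at least 10 (170733) were compared with limma 3.58.1 (R 4.3.3), fitted with a variance trend to log2(value + 1), with Benjamini-Hochberg adjustment. Scripts were tested on simulated data. Alternatives were other scalings, distances, thresholds, pseudocounts and filters, robust variance, a replicate block, omission of each library, and DESeq2 1.42.0 and edgeR 4.0.16 on recovered reads. Figures used matplotlib 3.10.9, pandas 2.3.3 and numpy 2.4.6 under Python 3.11.15.

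Peaks named are the 12 largest ratios and the 8 highest GFI1-KD means (1 per gene), raised peaks of genes in 8 lists, the largest ratio in each other list, genes with 3 or more raised peaks, and those nearest the ratio threshold. Not every peak so named is described, and others were named after their values were seen, as stated there. The result of 1 list is not reported here. The ribosomal and histone lists were trimmed after values were seen. The raised peaks and the 29 gene lists were chosen with earlier results of these data known. Gene names pair a peak with a nearby gene, which need not be the gene it acts on.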

Additional observations from a re-analysis of the deposited data

How the results depend on the processing

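The count of 814 raised gene-end peaks followed its thresholds: it was 458 within 0.5 kb, 1377 within 2 kb, 474 at a minimum mean of 50, 368 at a ratio of 1.5 and 72 at a ratio of 2. Lowered peaks, 1307 by the same rule exchanged, numbered 754 at a minimum mean of 50, 2476 at a ratio of 1.2, 597 at 1.5 and 140 at 2. Leaving out 1 library gave 834 to 1528 raised peaks (1528 without KI1, 1291 without KD2) and 1345 to 2029 lowered ones (2029 without KD3). Fewer libraries make the condition of no overlap easier to meet. Measured from the peak centre, an alternative chosen after seeing the data as was thinning, 699 were raised and 1175 lowered.

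limma called 17872 peaks, of which 47.7% were higher in GFI1-KD. The share higher was 58.6% with equal totals, 60.1% with median-of-ratios factors, 58.4% in edgeR and 66.8% in DESeq2, which called 10819. Leaving out 1 library gave 6996 to 22153 calls (7188 without KI2, 6996 without KI3, 10749 without KD3), and 159 to 430 of the 814 raised peaks called higher (182 without KI2, 159 without KI3, 208 without KD3) against 388 with all. The cause was not tested. For the 75 named peaks, 1166 fold changes were recomputed: 0 reversed, 110 at 29 peaks were no longer past the threshold, 21 were newly past it, and 1035 stayed on their side. The lack of reversals says nothing about robustness, because the rule chose peaks with every GFI1-KD library above every GFI1-KI library.

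With the replicate number as a block, limma called 18940 peaks and 383 of the raised ones. Deviations of same-numbered libraries correlated at -0.02, -0.04 and 0.06, so no pairing by number was seen. With so few libraries these values cannot show that same-numbered libraries were unpaired. Low depth limits weak peaks most, and 340 raised peaks had a GFI1-KD mean under 50.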
